A study of Mus musculus with 6 samples.

Results

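The genes described here encode the ligands, receptors and modulators of the Wnt pathway. They were chosen by gene symbol, and 55 of the 46983 genes in the deposited table met the rule. The rule took every protein-coding Wnt, Frizzled, Sfrp, Dkk and R-spondin gene, and added the receptors Lrp5, Lrp6, Ror1, Ror2 and Ryk, the inhibitors Frzb and Wif1, the factors Lef1, Tcf7, Tcf7l1 and Tcf7l2, and Axin1, Axin2 and Ctnnb1. By role they were 19 Wnt ligands, 4 R-spondins, 15 receptors, 10 secreted inhibitors, 3 genes for β-catenin and the Axins, and 4 Tcf/Lef factors.

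Wnt proteins are secreted ligands that bind Frizzled receptors together with a co-receptor. With Lrp5 or Lrp6 as the co-receptor, binding keeps β-catenin from being broken down on the Axin and Apc scaffold, and β-catenin then activates genes through the Tcf/Lef factors, whereas Ror and Ryk receptors carry signals that act on cell shape and movement. In the neural crest, Wnt signals take part in induction, in the expansion of progenitors and in the choice of sensory neuron and pigment cell fates.

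The samples, 3 control and 3 BAF155/170-deficient, came from mouse embryos at E11.25. Cells with GFP were collected by FACS, labelled as NCCs, and their RNA was sequenced. Control samples had the genotype Wnt1Cre/+;BAF155flox/+;BAF170flox/+;Rosa26mTmG/+, while that of BAF155/170-deficient samples was Wnt1Cre/+;BAF155flox/flox;BAF170flox/flox;Rosa26mTmG/+. The controls thus also carried Cre, the reporter and 1 floxed copy of each gene. Cre was under the control of Wnt1 regulatory sequences, which are also active in the dorsal neural tube, so GFP marks cells of that origin as well. The methods name 3 embryos of each genotype, but which litters they came from is not given in the sources used here, and the p-values measure only the spread between these samples.

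Library depth, as the total of gene counts, was 9662823, 8191219 and 11661941 for the controls, replicates 1 to 3, and 12633319, 16557026 and 19808620 for the deficient replicates. All deficient libraries were deeper than all controls. Levels are given as CPM, counts scaled to library sizes normalized by the TMM method, and a count of 3, the limit that a count of 0 allows, came to between 0.142 and 0.401 CPM by library. Such floors cover counting error only.

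The targeted genes were read first in every sample. Smarcc1, which encodes BAF155 (ENSMUSG00000032481.16, chr9:110117708-110240178 in GRCm38), had 42.1, 54.98 and 35.1 CPM across control replicates 1 to 3, against 29.4, 26.4 and 24.5 CPM across deficient replicates 1 to 3. Every deficient library lay below every control library, and some reads may belong to Dhx30, which shares 123 exon bases on the opposite strand, because the strand setting of the counting is not given. Smarcc1 thus had a log2 fold change of −0.71 ± 0.16 (SE, n = 3 and 3), with an adjusted p of 0.0676 in the quasi-likelihood test of edgeR, adjusted by Benjamini-Hochberg over all tested genes, but with libraries scaled to embryonic marker genes, as explained with the marker lists, it turned to 0.15. That call was lost on leaving out control 1 (0.222), control 2 (0.0938), deficient 2 (0.132) or deficient 3 (0.225), where control 1 stands for control replicate 1 and so on, and the brackets give the adjusted p of the same edgeR test (Benjamini-Hochberg). Without control replicate 2 the adjusted p still passed and the log2 fold change of −0.53 did not. Over its alternatives the adjusted p of Smarcc1 ranged from 2.91e-08 to 0.729 (edgeR, DESeq2 or limma, Benjamini-Hochberg).

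Smarcc2, which encodes BAF170 (ENSMUSG00000025369.14, chr10:128459248-128490482), had 91.8, 89.9 and 92.9 CPM across the controls, against 85.9, 82.3 and 86.8 CPM across the deficient libraries. The deficient libraries again lay below the controls, by a small margin, with a log2 fold change of −0.11 ± 0.058 (SE) that was not called (edgeR, Benjamini-Hochberg adjusted p = 0.251) and that turned to 0.72 with that scaling. Counts per gene do not separate the floxed exons, so a transcript that lost only those exons is still counted.

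The cell types in the sort were read from marker lists. The 12 macrophage markers, all of them tested and none at 0 in any library, summed to 13072, 12333 and 14262 CPM across the controls, against 14405, 15045 and 15735 CPM across the deficient libraries, Ctss being the most abundant at a mean of 3833 CPM. The 60 markers of neural tube, glial, mesenchymal, sensory and autonomic cells, of which 49 passed the filter on low counts, summed to 592, 812 and 467 CPM across the controls, against 413, 325 and 305 CPM across the deficient libraries, Col1a2 being the most abundant at 71.6 CPM. In every library, labelled as NCCs, the macrophage list thus held more counts than the embryonic lists together, and control replicate 2 had the highest embryonic and the lowest macrophage sum. Macrophage sums were higher and embryonic sums lower in the deficient libraries, with no overlap between the groups, and for each list the exact permutation p was 0.1, two-sided, the smallest that 3 against 3 samples can give. With library totals in place of TMM the macrophage groups overlapped. Control replicate 3, at 14901 CPM, then passed deficient replicates 1 and 2, at 14559 and 14872 CPM. The embryonic groups stayed apart. The embryonic markers had 18 of 49 tested genes called lower in the test described with the Wnt genes, against 4.88% of all tested genes. Among the 49, Dlx6 and Ret passed the filter through the controls alone and had to differ to be tested, and neither was among the 18. In these bulk samples fewer cells of a type and less RNA per cell cannot be told apart, and the part of the cell mix in the Wnt results was not tested.

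By lineage, mesenchymal crest markers (16 of 17 tested) summed to 299, 419.8 and 264 CPM across the controls, against 206, 162 and 163 CPM across the deficient libraries, with Col1a2 most abundant. The sensory markers (10 of 12 tested) summed to 77.00, 136 and 51.9 CPM across the controls, against 46.4, 30.2 and 34.6 CPM across the deficient libraries, with Tubb3 most abundant. Both lists fell in every deficient library below every control library, while under the embryonic scaling of the next paragraph the groups overlapped. The glial crest markers (5 of 8 tested) summed to 61.8, 76.1 and 46.1 CPM across the controls, against 49.8, 41.2 and 44.2 CPM across the deficient libraries, with Ednrb most abundant. The neural tube markers (13 of 15 tested) summed to 140.0, 160.1 and 96.4 CPM across the controls, against 103, 85.5 and 57.8 CPM across the deficient libraries, with Nes most abundant, and Dbx2 held 0 counts in 4 libraries. Their groups overlapped. For melanocytes the markers (2 of 5 tested) summed to 63.1, 63.3 and 67.8 CPM across the controls, against 69.5, 69.1 and 71.5 CPM across the deficient libraries, with Mitf most abundant, a gene that macrophages also express, and Tyrp1 held counts in 1 library only. The neutrophil markers (3 of 6 tested) summed to 19.04, 16.99 and 21.99 CPM across the controls, against 27.5, 23.8 and 25.7 CPM across the deficient libraries, with S100a8 most abundant and Mpo at 0 in every control library and Elane in every deficient library. Those of endothelium (5 of 7 tested) summed to 178, 175 and 196 CPM across the controls, against 200.5, 200.3 and 213 CPM across the deficient libraries, with Kdr most abundant and Tek at 0 in control replicate 1. The 3 sums were higher in every deficient library, under the embryonic scaling too, but not all of their members were. With library totals the melanocyte sum of control replicate 3, 70.8 CPM, passed deficient replicates 1 and 2, at 70.3 and 68.3 CPM. Its endothelial sum, 205 CPM, also passed theirs, at 203 and 198 CPM. Kdr, at a mean of 184 CPM, made up most of the endothelial sum. The groups overlapped for the other tested endothelial markers, Tie1, Cdh5, Esam and Pecam1. Of the 2 tested melanocyte markers, Kit, picked after its values were seen, had 4.999, 5.22 and 3.28 CPM across the controls, against 2.27, 2.38 and 2.14 CPM across the deficient libraries, a log2 fold change of −0.98 that was called lower (edgeR, Benjamini-Hochberg adjusted p = 0.0777) and was −0.11 under the embryonic scaling. This call ended on leaving out control 1 (0.248), control 2 (0.241), deficient 2 (0.132) or deficient 3 (0.248), in edgeR Benjamini-Hochberg adjusted p. The neutrophil marker Ngp, also picked afterwards, had a log2 fold change of −0.27, not called, which turned to 0.59 under the embryonic scaling. The erythroid markers (8 of 10 tested) summed to 28.9, 67.4 and 22.2 CPM across the controls, against 22.9, 17.05 and 21.2 CPM across the deficient libraries, with Hbb-y most abundant. The epithelial markers (0 of 6 tested) summed to 1.60, 2.94 and 1.72 CPM across the controls, against 0.940, 1.10 and 1.04 CPM across the deficient libraries, with Cdh1 most abundant. The erythroid groups overlapped, with control replicate 2 far above the other libraries. The epithelial sums were lower in every deficient library and overlapped under the embryonic scaling, and they rest on few counts per gene.

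A further scaling set the median level of 36 embryonic markers, those with at least 2 CPM and outside the Wnt lists, equal in all libraries. It therefore removes any change that those genes share, whatever its source. Under it the mesenchymal and sensory sums overlapped between the groups. The glial and neural tube sums turned to means of 44.8 and 96.6 CPM across the controls, against 61.4 and 108 CPM across the deficient libraries. In both the groups still overlapped. The macrophage sums stayed higher in every deficient library. The median log2 fold change over the 13961 genes tested moved with it from −0.018 to 0.80, and fold changes under it are read against that shift. With TMM, 681 genes were called lower and 8 higher, and with the embryonic scaling the calls were 81 lower and 7792 higher. The TMM calls lower were 0 with control replicate 1 left out, 61 with control replicate 2 left out, 1219 with control replicate 3 left out, 1030 with deficient replicate 1 left out, 219 with deficient replicate 2 left out and 17 with deficient replicate 3 left out, and the TMM calls higher ran from 0 with control replicate 1 left out to 45 with deficient replicate 2 left out. The direction of a Wnt gene is therefore given under both scalings, and unless stated otherwise values are on the TMM scale.

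Of the 55 Wnt genes, 32 passed the filter on low counts and were tested, and 23 did not, with 2 to 62 counts each over all libraries. Calls needed an adjusted p no higher than 0.1, a log2 fold change of 0.58 or more either way, and a mean level of 2 CPM or more. By this rule 6 of the 32 were called lower in the BAF155/170-deficient libraries, where 4.88% of all tested genes were, namely Wnt5a, Sfrp1, Ror2, Lef1, Fzd2 and Lrp5. None was called higher by edgeR's quasi-likelihood test, by DESeq2 or by limma-voom, against 0.0573%, 0.107% and 0.0501% of all tested genes, and at an unadjusted p under 0.05 the edgeR counts were 15 lower and 0 higher, against 15.2% and 12.1% of all tested genes. By adjusted p alone (edgeR, Benjamini-Hochberg, at most 0.1) the counts were 8 lower, against 7.75% of all tested genes, and 0 higher, against 4.18%. The groups did not overlap for 11 genes with deficient values lower, against 16.4% of all tested genes, and for 2 genes with deficient values higher, Axin1 and Fzd7, against 15.0%. Ror1 and Wnt1 reached the cutoff of the filter in all 3 controls and in no deficient library, and so had to differ to be tested. Without them 30 Wnt genes were tested, and the counts were 6 called lower, 7 lower by adjusted p alone (edgeR, Benjamini-Hochberg; the added gene was Tcf7l2, whose fold change was under the threshold), 13 lower at an unadjusted p under 0.05 and 9 lower without overlap.

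Over the tested Wnt genes the median log2 fold change was −0.71, 27 of them negative and 5 positive, and under the embryonic scaling the median was 0.13, with 12 negative and 20 positive. Beside the 0.80 that all tested genes had under that scaling, the median of the Wnt genes was the lower value on both scales. Counts and medians over the tested genes do not stand for all 55, and without Ror1 and Wnt1 the medians were −0.68 and 0.17. Without these 2 genes 25 of 30 were negative with TMM, where 7305 of all 13961 tested genes were. The number of Wnt genes called lower was 0 with control replicate 1 left out, 1 with control replicate 2 left out, 12 with control replicate 3 left out, 13 with deficient replicate 1 left out, 4 with deficient replicate 2 left out and 0 with deficient replicate 3 left out, against 0%, 0.426%, 8.45%, 7.24%, 1.53% and 0.119% of all tested genes in that order, so both counts moved with the library left out. Without control replicate 1 and without deficient replicate 3, edgeR's quasi-likelihood test had 10 of 34 and 12 of 35 Wnt genes lower at an unadjusted p under 0.05, against 11.3% and 10.7% of all tested genes, and 0 higher in both, against 6.48% and 4.71%. Ror1 was among the genes tested in both fits, and Wnt1 in the fit without control replicate 1. Counts without them are not given there, so no conclusion is drawn from these counts. DESeq2 and limma-voom on all libraries called 9 and 7 lower, against 6.26% and 5.94% of all tested genes. DESeq2 added Axin2, Fzd3 and Sfrp2 to the 6, and limma-voom added Axin2 and Fzd3 and dropped Lrp5. Without control replicate 3 the added genes were Frzb, Fzd3, Ryk, Sfrp2, Tcf7l1 and Tcf7l2, and without deficient replicate 1 they were Axin2, Dkk2, Frzb, Fzd3, Fzd10, Sfrp2 and Tcf7l2. Under the embryonic scaling 1 Wnt gene, Ror2, was called lower, and 5, Axin1, Ctnnb1, Fzd1, Fzd5 and Fzd7, were called higher, against 81 and 7792 of all 13961 tested genes (55.8% higher).

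**Figure D1:**
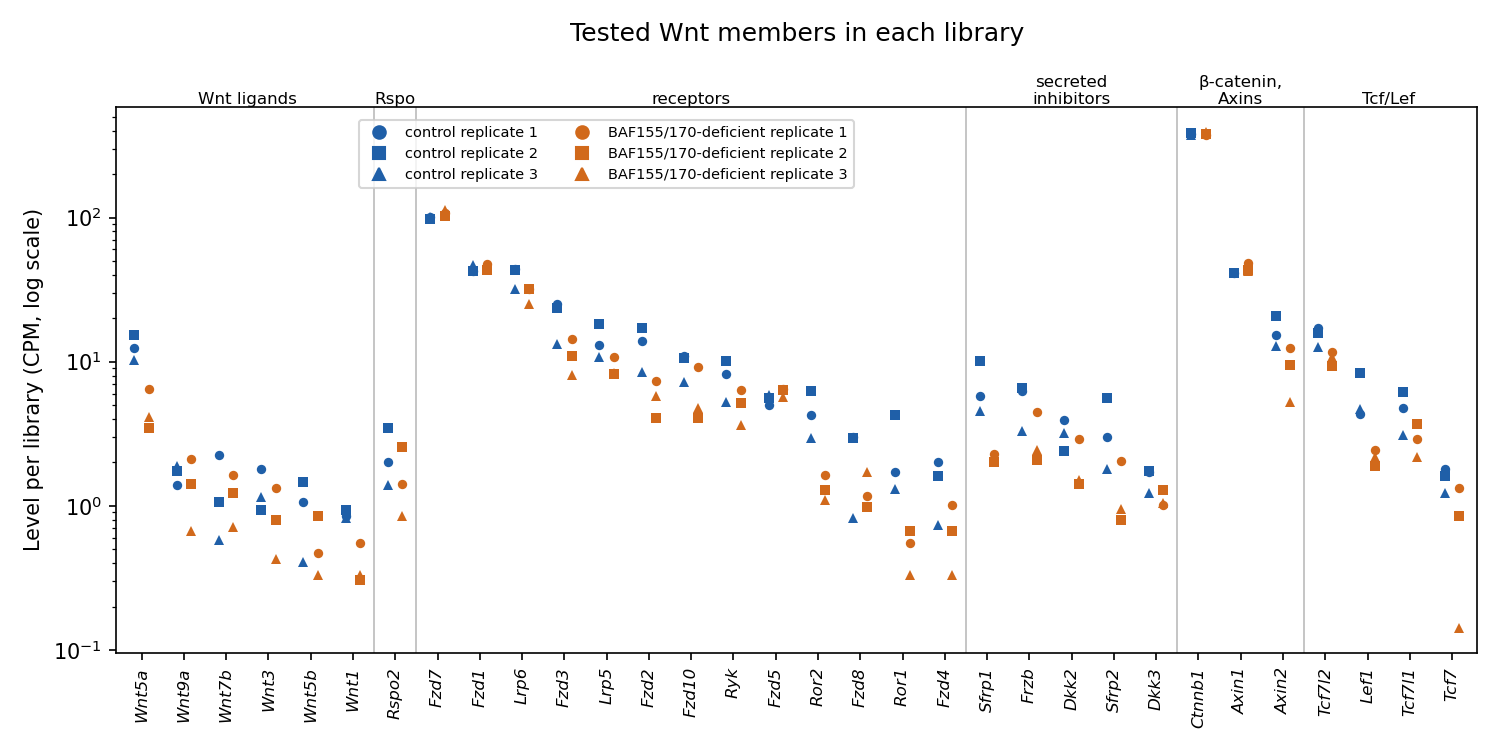
Level of the 32 tested Wnt genes in each library, in CPM on a log axis, grouped by role, with blue symbols for control and orange for BAF155/170-deficient replicates. Ctnnb1 lay between 372 and 392 CPM with the groups overlapping, while the deficient values of Wnt5a, Sfrp1, Ror2, Lef1, Fzd2 and Lrp5 all lay below their control values; under the embryonic scaling the direction of Lrp5 was reversed.

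Summed by role, the Wnt ligands came to 22.9, 27.2 and 19.1 CPM across control replicates 1 to 3, against 15.6, 10.6 and 9.54 CPM across deficient replicates 1 to 3. The secreted inhibitors summed to 22.4, 28.1 and 16.2 CPM against 14.1, 9.10 and 10.02 CPM, and the Tcf/Lef factors to 27.97, 31.97 and 21.6 CPM against 18.4, 15.7 and 15.3 CPM, in the same order. For these 3 roles every deficient library lay below every control library, and deficient replicate 1 was the highest of the deficient libraries. The exact permutation p of each sum was 0.1, two-sided, the smallest possible with 3 against 3 samples. Wnt5a held much of the ligand sum, at means of 12.6 CPM across the controls, against 4.68 CPM across the deficient libraries. Sfrp1, the most abundant inhibitor, had means of 6.81 CPM against 2.17 CPM. The groups overlapped for every other tested inhibitor, and for every other tested ligand but Wnt1. These sums therefore do not stand for all genes of a role. Receptors summed to 276, 285 and 238 CPM across the controls, against 247, 221 and 223 CPM across the deficient libraries (exact permutation p = 0.2), and R-spondins to 4.36, 6.29 and 2.63 CPM against 3.05, 3.79 and 1.57 CPM (exact permutation p = 0.3). The genes for β-catenin and the Axins summed to 437, 446 and 427 CPM against 433, 433 and 440.2 CPM (exact permutation p = 1). In these last 3 roles the groups overlapped. Ctnnb1, at a mean of 380 CPM, made up most of the last sum, and Fzd7, at 104 CPM, was the most abundant receptor. Such sums say little of less abundant genes. Among them were Axin1 and Axin2, whose groups did not overlap, Axin1 being higher and Axin2 lower in the deficient libraries.

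On the embryonic scaling the groups overlapped for the ligands, the inhibitors, the Tcf/Lef factors and the R-spondins. Ligands then had mean sums of 17.1 CPM across the controls, against 15.9 CPM across the deficient libraries, and inhibitors of 16.2 CPM across the controls, against 14.99 CPM across the deficient libraries. The Tcf/Lef sum turned to 20.1 CPM across the controls, against 22.3 CPM across the deficient libraries. R-spondins likewise turned, to 3.12 CPM across the controls, against 3.57 CPM across the deficient libraries. Receptors became higher in every deficient library, at means of 201 CPM across the controls, against 312 CPM across the deficient libraries, as did β-catenin and the Axins, at 334 CPM across the controls, against 594 CPM across the deficient libraries.

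**Figure D2:**
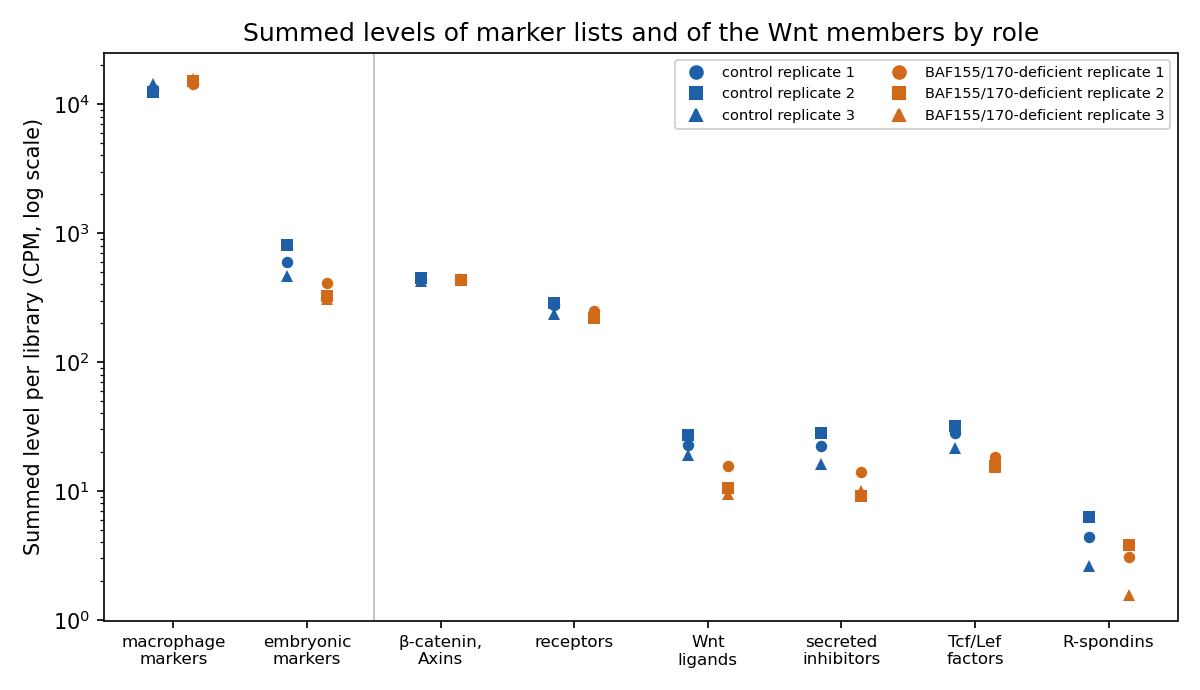
Summed level per library, in CPM on a log axis, of the macrophage and embryonic marker lists and of the Wnt genes by role, with blue symbols for control and orange for deficient replicates. With TMM the embryonic markers, ligands, inhibitors and Tcf/Lef factors had all deficient libraries below all controls and the macrophage markers all above, whereas under the embryonic scaling the groups overlapped for these 3 roles and the Tcf/Lef sum was higher in the deficient libraries on average, at 22.3 against 20.1 CPM.

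Among the ligands, Wnt5a, a ligand best known for signals through Ror receptors that do not use β-catenin, had the highest level per kilobase of exon (ENSMUSG00000021994.14, chr14:28504750-28527448). It had 12.3, 15.3 and 10.3 CPM across control replicates 1 to 3, against 6.42, 3.48 and 4.13 CPM across deficient replicates 1 to 3, or 12.6 ± 2.47 and 4.68 ± 1.54 CPM (mean ± SD, n = 3 and 3). All deficient libraries were lower than all controls, and control replicate 2 was the highest library. This gave a log2 fold change of −1.44 ± 0.24 (SE), with an adjusted p of 0.0439 in the quasi-likelihood test of edgeR, adjusted by Benjamini-Hochberg. In the same edgeR test the Benjamini-Hochberg adjusted p no longer passed on leaving out control 1 (0.214) or deficient 3 (0.114), and over the alternatives it ranged from 6.34e-10 to 0.214. Under the embryonic scaling the log2 fold change was −0.57, the same direction, and was not called (edgeR, Benjamini-Hochberg adjusted p = 0.168). The antisense gene Gm2670 shares 358 exon bases with Wnt5a, and held 45 counts in all libraries against 582 for Wnt5a, so the origin of some reads is uncertain.

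Wnt1 is expressed in the dorsal neural tube, and its regulatory sequence drives the Cre of this study (ENSMUSG00000022997.9, chr15:98789857-98793837). It had 8, 7 and 10 counts across control replicates 1 to 3, against 7, 5 and 7 counts in deficient replicates 1 to 3, which is 0.851, 0.936 and 0.821 CPM against 0.548, 0.306 and 0.332 CPM. The counts were alike and the deeper deficient libraries gave lower CPM. Wnt1 passed the filter through the controls alone, so no test of it by itself is given. It did not pass the filter when any deficient library was left out or with the stricter filter, so it has no value there.

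The other tested ligands, Wnt3, Wnt5b, Wnt7b and Wnt9a, fall outside the rule for named genes and were picked after their values were seen. Wnt9a had 13, 13 and 23 counts across the controls, against 27, 23 and 14 counts in the deficient libraries, and Wnt7b had 21, 8 and 7 against 21, 20 and 15. Wnt3 had 17, 7 and 14 counts against 17, 13 and 9 counts, and Wnt5b 10, 11 and 5 against 6, 14 and 7. In each of them the groups overlapped in CPM. Their log2 fold changes, −0.31, −0.13, −0.67 and −0.76 in that order, were not called, and under the embryonic scaling all 4 were positive, at 0.44, 0.69, 0.095 and 0.076. Wnt7b also turned, to 0.56 without control replicate 1 and 0.16 without deficient replicate 3, and Wnt9a to 0.055 without deficient replicate 3. Wnt3 ranged from −0.32 without deficient replicate 3 to −1.11 without deficient replicate 1. Wnt5b ranged from −0.38 without control replicate 2 to −1.23 without deficient replicate 2. The 13 ligands that did not pass the filter held few counts, and of these Wnt4 and Wnt6 had the most, 5, 7 and 8 with 9, 10 and 16 for Wnt4 and 8, 6 and 6 with 10, 10 and 12 for Wnt6. They were not tested. Wnt2, Wnt8a, Wnt9b, Wnt10a, Wnt10b and Wnt16 had at most 10 counts in all libraries together, and Wnt2b, Wnt3a, Wnt7a, Wnt8b and Wnt11 lay between these and Wnt6.

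Several ligand genes lie side by side in the genome, and detection differed within these pairs. Wnt10b and Wnt1, 11.7 kb apart on chromosome 15, had 3 and 44 counts in all libraries. Wnt6 and Wnt10a, 6.19 kb apart on chromosome 1, had 52 and 2 counts. On chromosome 11, Wnt3a and Wnt9a had 20 and 113 counts and Wnt9b and Wnt3 had 8 and 77. In each pair 1 neighbour held most of the counts.

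R-spondins are secreted proteins that raise the number of Frizzled receptors at the cell surface. Of the 4, Rspo2 was tested, with 19, 26 and 17 counts across the controls, against 18, 42 and 18 counts in the deficient libraries. The groups overlapped, and the log2 fold change of −0.48 ± 0.47 (SE) was not called (edgeR, Benjamini-Hochberg adjusted p = 0.542), turning to 0.34 under the embryonic scaling. It ranged from −0.082 without control replicate 2 to −1.01 without deficient replicate 2. Rspo1 had 9, 15 and 7 counts against 9, 10 and 4 counts, and Rspo3 12, 5 and 8 against 12, 10 and 11. Rspo4 was at 0 in 4 libraries. All 4 genes were named after their values were seen.

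Among the receptors, 13 of 15 were tested. Fzd7, a Frizzled receptor, had the highest level per kilobase of exon (ENSMUSG00000041075.8, chr1:59482424-59486955), with 100.1, 96.99 and 102 CPM across control replicates 1 to 3, against 108, 103 and 112 CPM across deficient replicates 1 to 3. Fzd1, a Frizzled of the same subfamily (ENSMUSG00000044674.6, chr5:4753839-4758035), had 42.8, 42.4 and 46.6 CPM against 47.9, 43.2 and 45.3 CPM. Every deficient value of Fzd7 lay above every control value, by a narrow margin, and the groups of Fzd1 overlapped. Their log2 fold changes of 0.11 ± 0.059 and 0.046 ± 0.075 (SE) were not called (edgeR, Benjamini-Hochberg adjusted p = 0.233 and 0.73), and over their alternatives the adjusted p ranged from 0.0535 to 0.602 and from 0.0555 to 0.968. They were 0.94 and 0.86 under the embryonic scaling, both called higher there and close to the shift of all genes. Whether the RNA of these receptors came from the macrophages in the sort was not tested.

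Fzd2, the third of that subfamily, was called lower (ENSMUSG00000050288.6, chr11:102604396-102608058). It had 13.9, 16.99 and 8.45 CPM across the controls, against 7.28, 4.03 and 5.74 CPM across the deficient libraries, 13.1 ± 4.33 against 5.69 ± 1.63 CPM (mean ± SD, n = 3 and 3). The groups did not overlap, although control replicate 3 and deficient replicate 1 were near each other. Its log2 fold change was −1.20 ± 0.29 (SE; edgeR quasi-likelihood, Benjamini-Hochberg adjusted p = 0.0739). This call did not hold on leaving out control 1 (0.243), control 2 (0.211), deficient 2 (0.12) or deficient 3 (0.242), where the brackets give the edgeR Benjamini-Hochberg adjusted p, and its alternatives spanned 1.93e-07 to 0.514. With the embryonic scaling the log2 fold change was −0.27 (edgeR, Benjamini-Hochberg adjusted p = 0.514). The difference in fold change between Fzd2 and its relatives was not tested.

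Ror2, a receptor tyrosine kinase that binds Wnt5a (ENSMUSG00000021464.14, chr13:53109312-53286124), had 4.25, 6.29 and 2.95 CPM across control replicates 1 to 3, against 1.64, 1.28 and 1.09 CPM across deficient replicates 1 to 3. Every deficient library was below every control library, and the counts behind these levels were 40, 47 and 36 against 21, 21 and 23. The log2 fold change was −1.74 ± 0.34 (SE), with an edgeR quasi-likelihood Benjamini-Hochberg adjusted p of 0.0483. Its call ended on leaving out control 1 (0.214), control 2 (0.137) or deficient 3 (0.142), with the edgeR Benjamini-Hochberg adjusted p in brackets and all alternatives spanning 5.32e-05 to 0.214. Ror2 kept its call under the embryonic scaling, at a log2 fold change of −0.85 (edgeR, Benjamini-Hochberg adjusted p = 0.0836) and was the only Wnt gene called lower there. Its relative Ror1, picked after its values were seen, had 1.70, 4.28 and 1.31 CPM across the controls, against 0.548, 0.672 and 0.332 CPM across the deficient libraries. The groups of Ror1 did not overlap either, but it passed the filter through the controls alone, so no test of it by itself is given. The edgeR counts on all libraries were also given without it, and its mean of 1.47 CPM was under the threshold for a call.

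Lrp5 and Lrp6 are the co-receptors of the β-catenin branch. Lrp5 (ENSMUSG00000024913.16, chr19:3584828-3686564) had 13.1, 18.3 and 10.8 CPM across the controls, against 10.8, 8.19 and 8.40 CPM across the deficient libraries. Control replicate 2 was the highest, and deficient replicate 1 came within rounding of control replicate 3 without passing it. The log2 fold change of −0.62 ± 0.20 (SE) was called (edgeR quasi-likelihood, Benjamini-Hochberg adjusted p = 0.0965), the nearest of the called genes to both thresholds. The edgeR call was lost on leaving out control 1 (0.25), control 2 (0.305), deficient 2 (0.201) or deficient 3 (0.296), with Benjamini-Hochberg adjusted p in brackets, and the log2 fold change without control replicate 2 was −0.39. With limma-voom it also missed the adjusted p (Benjamini-Hochberg adjusted p = 0.103). The fold threshold was also missed with limma-voom, library totals or no filter, at −0.57, −0.54 and −0.56, and without deficient replicate 2 or 3, at −0.54 and −0.56. Its adjusted p ranged from 0.0178 to 0.526 over the alternatives (Benjamini-Hochberg), and the embryonic scaling turned its direction, to 0.27.

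Lrp6 (ENSMUSG00000030201.15, chr6:134446476-134566965) had 44.03, 43.5 and 32.01 CPM across the controls, against 31.8, 31.9 and 25.02 CPM across the deficient libraries. Control replicate 3 lay just above the deficient libraries, so the groups did not overlap. The log2 fold change of −0.43 ± 0.14 (SE) was not called (edgeR, Benjamini-Hochberg adjusted p = 0.107) and was 0.41 under the embryonic scaling. Fzd3, a Frizzled known for axon guidance (ENSMUSG00000007989.6, chr14:65192449-65262463), had 25.2, 23.5 and 13.2 CPM against 14.3, 10.9 and 8.07 CPM. In Fzd3 control replicates 1 and 2 were high, and control replicate 3 fell among the deficient libraries. For Fzd3 the log2 fold change of −0.90 ± 0.30 (SE) was not called (edgeR, Benjamini-Hochberg adjusted p = 0.121). It was −1.16 and called without control replicate 3, −1.12 and called without deficient replicate 1, and −0.048 under the embryonic scaling.

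The remaining tested receptors, named after their values were seen, were Fzd4, Fzd5, Fzd8, Fzd10 and Ryk, a receptor that binds Wnt through a domain like that of Wif1. Fzd10 had 10.95, 10.6 and 7.22 CPM across the controls, against 9.16, 4.03 and 4.75 CPM across the deficient libraries, and Ryk 8.19, 10.03 and 5.25 CPM against 6.34, 5.19 and 3.66 CPM. Fzd5 had 4.999, 5.62 and 5.91 CPM against 6.42, 6.35 and 5.70 CPM. In all 5 the groups overlapped and no call was made. Log2 fold changes were −1.13 for Fzd4, −0.74 for Fzd8, −0.69 for Fzd10, −0.62 for Ryk and 0.16 for Fzd5, and the embryonic scaling turned Fzd8, Fzd10 and Ryk to 0.23, 0.17 and 0.23. Fzd6 and Fzd9 did not pass the filter, with 10, 10 and 3 counts against 2, 0 and 6 for Fzd6 and 6, 7 and 4 against 1, 3 and 4 for Fzd9.

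Most secreted inhibitors bind Wnt proteins or their co-receptors outside the cell, and 5 of the 10 genes placed in this role by symbol were tested. Sfrp1, which binds Wnt proteins through a domain like that of Frizzled (ENSMUSG00000031548.7, chr8:23411502-23449632), had 5.74, 10.2 and 4.51 CPM across control replicates 1 to 3, against 2.27, 2.02 and 2.23 CPM across deficient replicates 1 to 3. The deficient libraries lay close together, all below the controls, whose highest was replicate 2. Between the groups the log2 fold change was −1.62 ± 0.31 (SE), with an adjusted p of 0.0483 (edgeR quasi-likelihood, Benjamini-Hochberg). It no longer passed on leaving out control 1 (0.214), control 2 (0.112) or deficient 3 (0.127), given as edgeR Benjamini-Hochberg adjusted p, and the alternatives spanned 1.64e-06 to 0.214. The embryonic scaling left the direction and gave −0.70, not called (edgeR, Benjamini-Hochberg adjusted p = 0.117).

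Of the other inhibitors, all named after their values were seen, Frzb and Sfrp2 are of the same family as Sfrp1, and Dkk2 binds Lrp5 and Lrp6. Frzb had 6.28, 6.56 and 3.28 CPM across the controls, against 4.46, 2.08 and 2.42 CPM across the deficient libraries. Sfrp2 had 2.98, 5.62 and 1.81 CPM against 2.04, 0.794 and 0.950 CPM, and Dkk2 3.94, 2.41 and 3.20 CPM against 2.90, 1.41 and 1.52 CPM. Deficient replicate 1 overlapped the controls in each of them. The log2 fold changes of Frzb, Sfrp2 and Dkk2 were −0.85, −1.46 and −0.75 and that of Dkk3 was −0.46, none called by edgeR's quasi-likelihood test with TMM, with Sfrp2 closest at a Benjamini-Hochberg adjusted p of 0.102. With library totals edgeR called Sfrp2, at −1.37 (Benjamini-Hochberg adjusted p = 0.0709). With no filter, or with the replicate number as a block, edgeR called both Frzb and Sfrp2. On the embryonic scale Sfrp2 stayed negative at −0.53, and Frzb, Dkk2 and Dkk3 turned to 0.039, 0.042 and 0.38. Dkk1, Dkk4, Sfrp4, Sfrp5 and Wif1 did not pass the filter. Dkk1 had 4, 1 and 14 counts across the controls, against 4, 7 and 4 in the deficient libraries, and Sfrp5 1, 6 and 2 against 1, 1 and 3. Wif1 had 2, 3 and 6 against 4, 5 and 4, and Dkk4 at most 1 count in any library.

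Ctnnb1 encodes β-catenin, which joins cadherins at the membrane and carries the Wnt signal to the nucleus (ENSMUSG00000006932.16, chr9:120929216-120960507). It had 380.2, 385 and 372 CPM across the controls, against 373, 380.5 and 392 CPM across the deficient libraries. The 6 libraries lay close together, with overlap, and the log2 fold change was 0.011 ± 0.055 (SE; edgeR, Benjamini-Hochberg adjusted p = 0.921). With the embryonic scaling Ctnnb1 was at 0.84 and called higher (edgeR, Benjamini-Hochberg adjusted p = 0.0774), its alternatives spanning 0.0774 to 0.988. The small value turned to −0.0016 without control replicate 3 and −0.011 without deficient replicate 3. Ulk4 shares 759 exon bases on the opposite strand and held 178 counts against 30235 for Ctnnb1.

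Axin1 and Axin2 are scaffolds on which β-catenin is marked for breakdown, and Axin2 is itself switched on by β-catenin in many tissues. Axin1 (ENSMUSG00000024182.16, chr17:26138688-26195811) had 41.2, 41.1 and 41.5 CPM across the controls, against 48.2, 43.1 and 42.5 CPM across the deficient libraries. Axin2 (ENSMUSG00000000142.15, chr11:108920349-108950783) had 15.4, 20.6 and 12.9 CPM against 12.5, 9.41 and 5.22 CPM. The deficient values of Axin1 were all above and those of Axin2 all below the controls, with Axin2 lowest in deficient replicate 3. Axin1 had a log2 fold change of 0.11 ± 0.075 (SE) and Axin2 of −0.86 ± 0.33 (SE), neither called (edgeR, Benjamini-Hochberg adjusted p = 0.361 and 0.15). Axin1 was at 0.053 without deficient replicate 1, and stayed positive whichever library was left out. DESeq2 and limma-voom called Axin2 lower (Benjamini-Hochberg adjusted p = 0.0302 and 0.0883), as did edgeR without deficient replicate 1, at −1.16. Without deficient replicate 3 the log2 fold change of Axin2 was −0.57. Its adjusted p ranged from 7.22e-05 to 0.927 over the alternatives, and under the embryonic scaling the log2 fold change of Axin2 was −0.041 and that of Axin1 0.93. The antisense gene Gm11670 shares 209 exon bases with Axin2 and held 21 counts against 879.

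The Tcf/Lef factors bind DNA and take up β-catenin to activate genes, and all 4 were tested. Lef1 (ENSMUSG00000027985.14, chr3:131110471-131224356) had 4.36, 8.29 and 4.68 CPM across control replicates 1 to 3, against 2.43, 1.89 and 2.18 CPM across deficient replicates 1 to 3. All deficient libraries were below all controls, and control replicate 2 stood above the other controls. The log2 fold change was −1.40 ± 0.30 (SE; edgeR quasi-likelihood, Benjamini-Hochberg adjusted p = 0.0534). Lef1 lost the call on leaving out control 1 (0.214), control 2 (0.166) or deficient 3 (0.149), in edgeR Benjamini-Hochberg adjusted p, its alternatives spanning 0.000179 to 0.268. Under the embryonic scaling it was −0.50 in the same direction and not called (edgeR, Benjamini-Hochberg adjusted p = 0.268). The antisense gene Gm43352 shares 1208 exon bases with Lef1 and held 26 counts in all libraries against 268 for Lef1, which leaves the origin of some reads uncertain.

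Tcf7l2 (ENSMUSG00000024985.18, chr19:55741820-55933654) had 17.02, 15.9 and 12.6 CPM across the controls, against 11.7, 9.29 and 10.8 CPM across the deficient libraries. The groups did not overlap, and the log2 fold change of −0.51 ± 0.15 (SE) passed the adjusted p and not the fold threshold (edgeR, Benjamini-Hochberg adjusted p = 0.0865). Tcf7l1, which acts mostly as a repressor (ENSMUSG00000055799.13, chr6:72626378-72789254), had 4.79, 6.15 and 3.12 CPM against 2.90, 3.67 and 2.18 CPM. Its groups overlapped, and the log2 fold change of −0.67 ± 0.31 (SE) was not called (edgeR, Benjamini-Hochberg adjusted p = 0.186). The embryonic scaling turned both, to 0.35 for Tcf7l2 and 0.18 for Tcf7l1. Without control replicate 3 both were called, at −0.64 and −0.91, and without deficient replicate 1 Tcf7l2 was called at −0.58. Tcf7 (ENSMUSG00000000782.15, chr11:52252371-52283014) had 17, 12 and 15 counts across the controls, against 17, 14 and 3 counts in the deficient libraries. Deficient replicate 3, the deepest library, held the fewest. The log2 fold change of Tcf7 was −1.07 ± 0.61 (SE; edgeR, Benjamini-Hochberg adjusted p = 0.285). It was −0.50 without deficient replicate 3 and −0.31 under the embryonic scaling.

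**Figure D3:**
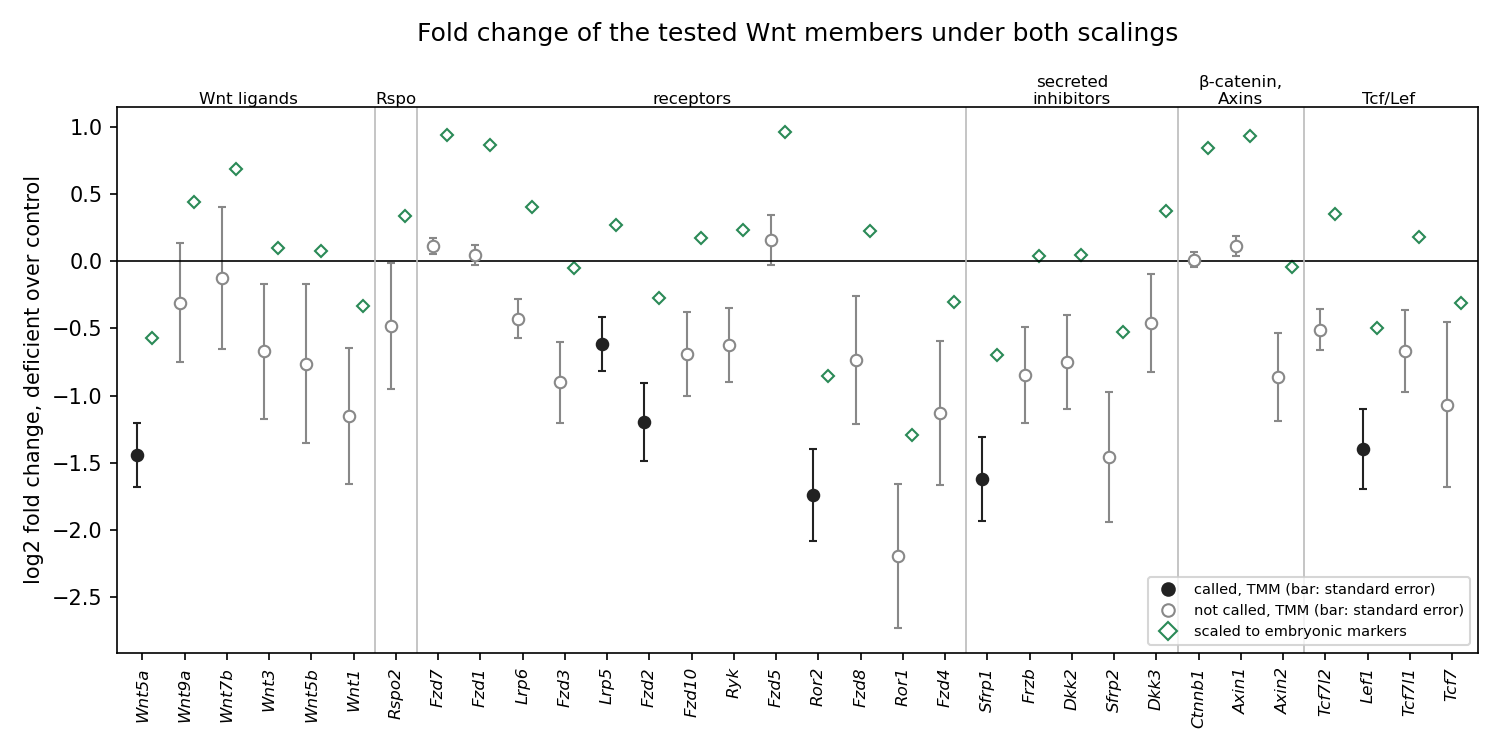
Log2 fold change, deficient over control, of the 32 tested Wnt genes by role, as circles with TMM (bars are standard errors, filled where called) and as green diamonds under the embryonic scaling. With TMM 27 of 32 genes lay below 0, and under the embryonic scaling 12 of 32 did, among them Wnt5a, Sfrp1, Ror2, Lef1 and Fzd2 but not Lrp5, which turned to 0.27. Ror1 and Wnt1 are drawn and counted, but they passed the filter through the controls alone and had to differ to be tested. Their symbols and bars are thus not read as results, and without them 25 of 30 genes lay below 0 with TMM.

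Levels of different genes were compared per kilobase of exon length, as means over the 3 controls. Ctnnb1 was highest at 73.00 CPM per kb, followed by Fzd7 at 21.97, Axin1 at 10.8 and Fzd1 at 10.5 CPM per kb. Fzd2 came next at 3.58 CPM per kb, then Axin2, Fzd10 and Lrp6 at 2.96, 2.95 and 2.91 CPM per kb. The 4 highest genes had positive log2 fold changes, of at most 0.11, and the 4 after them negative ones, of which the embryonic scaling turned those of Fzd10 and Lrp6. Wnt5a, at 1.62 CPM per kb in the controls and 0.598 in the deficient libraries, was the highest of the ligands. Sfrp1 at 1.56 and Sfrp2 at 1.61 CPM per kb were near Frzb at 1.66, and Lef1 at 0.657 CPM per kb was below Tcf7l2 at 1.73.

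Other genes of the pathway were read from a list of 89 symbols, of which 86 were found and 74 tested. Of these, 14 were called lower, against 4.88% of all tested genes, and none higher by edgeR's quasi-likelihood test, DESeq2 or limma-voom, against 0.0573%, 0.107% and 0.0501% of all tested genes, with 27 lower and 3 higher at an unadjusted edgeR p under 0.05, against 15.2% and 12.1%. Nkd2, picked after its values were seen, passed the filter through the controls alone, and without it 73 were tested, 14 were called lower and 26 were lower at an unadjusted p under 0.05. Over all 74 the median log2 fold change was −0.33, and under the embryonic scaling it was 0.50, with 2 called lower and 30 higher, against 81 and 7792 of all 13961 tested genes (55.8% higher). Of the other pathway genes 0, 3, 21, 17, 8 and 1 were called lower with control replicates 1 to 3 and then deficient replicates 1 to 3 left out in turn, against 0%, 0.426%, 8.45%, 7.24%, 1.53% and 0.119% of all tested genes, and the median was −0.21 without control replicate 2.

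The 5 with the lowest p were Apc, Cxxc4, Nkd1, Draxin and Daam2. Apc, part of the scaffold that holds β-catenin for breakdown (ENSMUSG00000005871.14, chr18:34220924-34322552), had 51.8, 53.1 and 45.96 CPM across the controls, against 32.9, 32.1 and 24.8 CPM across the deficient libraries. Cxxc4 and Nkd1 both bind Dishevelled and damp the signal. Cxxc4 (ENSMUSG00000044365.15, chr3:134236484-134262161) had 7.76, 7.76 and 5.33 CPM against 2.74, 2.08 and 2.14 CPM, and Nkd1 (ENSMUSG00000031661.11, chr8:88521354-88594884) 6.28, 8.43 and 4.10 CPM against 2.35, 1.77 and 1.33 CPM. Draxin, a secreted guidance protein that antagonizes Wnt signals (ENSMUSG00000029005.4, chr4:148098437-148130698), had 7.02, 8.56 and 5.33 CPM against 2.98, 1.59 and 2.52 CPM, and Daam2, a formin that binds Dishevelled (ENSMUSG00000040260.7, chr17:49456022-49564343), 6.81, 8.03 and 4.76 CPM against 2.98, 2.44 and 1.61 CPM. In all 5 genes every deficient library lay below every control library.

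Apc had a log2 fold change of −0.75 ± 0.11 (SE), Cxxc4 of −1.58 ± 0.25, Nkd1 of −1.79 ± 0.32, Draxin of −1.55 ± 0.28 and Daam2 of −1.48 ± 0.29. Their adjusted p values were 0.0393, 0.0393, 0.0455, 0.0455 and 0.0483 in the quasi-likelihood test of edgeR, adjusted by Benjamini-Hochberg. In edgeR Benjamini-Hochberg adjusted p, the call of Apc was lost on leaving out control 1 (0.214), that of Cxxc4 on leaving out control 1 (0.214) or deficient 3 (0.106), and that of Nkd1 on leaving out control 1 (0.214), control 2 (0.112) or deficient 3 (0.116). Draxin lost its call on leaving out control 1 (0.214), control 2 (0.112) or deficient 3 (0.114) and Daam2 on leaving out control 1 (0.214), control 2 (0.136) or deficient 3 (0.139), on the same edgeR Benjamini-Hochberg scale. Over the alternatives the adjusted p ranged from 6.47e-10 to 0.892 for Apc, 1.68e-06 to 0.214 for Cxxc4, 4.06e-07 to 0.214 for Nkd1, 2.55e-06 to 0.214 for Draxin and 1.61e-05 to 0.214 for Daam2. On the embryonic scale Apc turned to 0.062, and Cxxc4, Nkd1, Draxin and Daam2 stayed negative at −0.72, −0.91, −0.65 and −0.64, Nkd1 still called. The other genes called lower were Mapk8, Tle1, Prickle2, Apc2, Dact1, Ptk7, Amer1, Tnik and Pygo1, named after their values were seen.

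Genes known as targets of β-catenin in some tissue made up a list of 35, of which 23 were tested, and the list shares Axin2, Lef1, Tcf7, Dkk1 and Wif1 with the Wnt genes, Twist1 and Msx1 with the embryonic markers, Mitf with the melanocyte markers, and 7 genes with the other pathway list, among them Nkd1, whose call is thus counted in both. Called lower were 6, Lef1, Nkd1, Sox9, Twist1, Runx2 and Msx1, against 4.88% of all tested genes, and none higher by edgeR's quasi-likelihood test, DESeq2 or limma-voom, against 0.0573%, 0.107% and 0.0501% of all tested genes, with 11 lower and 4 higher at an unadjusted p under 0.05, against 15.2% and 12.1% of all tested genes. The median log2 fold change was −0.91, and −0.041 under the embryonic scaling, where 2 were called lower and 5 higher, against 81 and 7792 of all 13961 tested genes (55.8% higher). The summed level of the list went the other way. It was 834, 859 and 896 CPM across the controls, against 907, 917 and 932 CPM across the deficient libraries (exact permutation p = 0.1). Cdkn1a was the most abundant, at a mean of 380 CPM. Its own mean was 354 CPM across the controls, against 405 CPM across the deficient libraries, beside 863 and 919 CPM for the list. Most of the difference in the sum thus lay in this 1 gene, and the sum does not stand for the list. With library totals the groups overlapped in this sum. Of the targets 0, 0, 7, 8, 4 and 0 were called lower by edgeR's test with control replicates 1 to 3 and then deficient replicates 1 to 3 left out in turn, against 0%, 0.426%, 8.45%, 7.24%, 1.53% and 0.119% of all tested genes. Sox9, a factor of early NCCs and of cartilage (ENSMUSG00000000567.5, chr11:112782224-112787760), had 6.70, 10.3 and 4.27 CPM across the controls, against 2.58, 2.38 and 1.33 CPM across the deficient libraries. The groups did not overlap, and the log2 fold change was −1.75 ± 0.36 (SE; edgeR quasi-likelihood, Benjamini-Hochberg adjusted p = 0.0534). Sox9 lost its call on leaving out control 1 (0.215), control 2 (0.141) or deficient 3 (0.149), by edgeR Benjamini-Hochberg adjusted p, its alternatives spanning 1.25e-07 to 0.215, and the embryonic scaling gave −0.88.

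Promoter sequences from RefSeq on GRCm38.p6 were searched on both strands for CTTTGA, whose reverse complement is TCAAAG, the core letters of the Tcf/Lef motif, in windows of 300 bases. Of the 55 Wnt genes, 38 had 47 promoters there, and 7 of those held the letters (14.9%), against 5257 of all 32851 promoters (16%). Among the called Wnt genes and Axin2, the table had Ror2, Lef1 and Axin2, and named only are Wnt5a, Sfrp1, Fzd2 and Lrp5. Of their 6 promoters, 1 held the letters, at an inner start of Lef1, and the others that held them belong to Dkk1, Frzb, Fzd1, Ror1, Wnt5b and Wnt11. The 250 bases before that start and before the starts of Axin2 and Ror2 are shown, since these are the Tcf/Lef factor called lower, a textbook target and the gene called lower under both scalings. They are chr3:131156044-131156293 on the plus strand, chr11:108920099-108920348 on the plus strand and chr13:53286125-53286374 on the minus strand, 5′ to 3′, with the searched letters in capitals. No match was found for Axin2 and Ror2, so their letters have no capitals. A match is a description and not a site or a cause, and no match says only that these letters are not in the window.
Lef1 inner start: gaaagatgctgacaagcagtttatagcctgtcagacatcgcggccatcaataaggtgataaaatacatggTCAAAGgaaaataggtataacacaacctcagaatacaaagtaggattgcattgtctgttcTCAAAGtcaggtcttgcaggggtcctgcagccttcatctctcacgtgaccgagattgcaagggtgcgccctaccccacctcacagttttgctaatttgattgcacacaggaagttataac
Axin2: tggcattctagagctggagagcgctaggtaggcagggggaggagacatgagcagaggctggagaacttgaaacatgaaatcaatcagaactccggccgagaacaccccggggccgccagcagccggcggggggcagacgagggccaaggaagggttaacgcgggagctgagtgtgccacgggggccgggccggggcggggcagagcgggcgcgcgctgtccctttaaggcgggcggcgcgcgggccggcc
Ror2: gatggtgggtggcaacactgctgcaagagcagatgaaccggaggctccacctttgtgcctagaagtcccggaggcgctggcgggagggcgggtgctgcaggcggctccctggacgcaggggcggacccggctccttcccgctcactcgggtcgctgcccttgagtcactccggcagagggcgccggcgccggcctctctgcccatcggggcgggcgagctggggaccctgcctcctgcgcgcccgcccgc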

How the data were processed

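RNAseq of GFP+ NCCs was read for 3 control and 3 BAF155/170-deficient samples. The authors sequenced strand-specific poly(A) libraries in paired ends, checked them with FastQC 0.11.7, trimmed adapters with cutadapt 1.18, aligned to GRCm38 with STAR and counted reads on genes with featureCounts, according to the methods and the submitters' processing notes. The authors deposited these counts, whole numbers per gene without normalization. Neither the strand setting of that counting, nor its annotation release, nor how it handled multi-mapping reads is given. Of 46983 identifiers, 46488 matched GENCODE M21 without their version number, and the 495 without a name held 0.0558% to 0.0706% of the counts of a library.

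The tests used edgeR 4.0.16 under R 4.3.3: filterByExpr (minimum count 10, minimum total 15, group size 3), TMM, and a robust quasi-likelihood fit over all 13961 genes with condition as its only term and Benjamini-Hochberg adjustment. The study used limma, run here as an alternative, and its thresholds were kept: adjusted p of at most 0.1, log2 fold change of at least 0.58, mean of at least 2 CPM. CPM were computed from the deposited counts. Standard errors come from the quasi-likelihood F statistic. Biological variation between replicates had a common coefficient of 12.8%. The pipeline was tested on simulated data. Sums over a list were compared by an exact permutation test, two-sided.

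Genes named with full values were Smarcc1, Smarcc2, the called Wnt genes, the 8 tested Wnt genes of highest mean CPM, 12 fixed Wnt genes (Wnt1 without its test), and the 5 other pathway genes and 3 target genes of lowest p; all others were chosen once values had been seen. The members and lists were chosen with earlier results of these data known. Of the other pathway symbols, Tiki1, Tiki2 and Tle5 found no match. Alternatives were DESeq2 1.42.0, limma-voom (limma 3.58.1), library totals, the embryonic scaling, no filter, a filter of 1 CPM in 3 libraries, an adjusted p of 0.05 or of 0.1 alone, the replicate number as a block, and each library left out. Figures were drawn with Python 3.11.15 and matplotlib 3.10.9. Proteins of the Tcf/Lef factors and the study's single-cell data were not analysed here. The sum of the autonomic markers by themselves is not reported here.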

Additional observations from a re-analysis of the deposited data

How the results depend on the processing

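Calls lower among all tested genes, Wnt genes, other pathway genes and targets numbered 681, 6, 14, 6 in that order. At an adjusted p of 0.05 they were 94, 3, 6, 1, and under the embryonic scaling 81, 1, 2, 2. By adjusted p alone all tested genes had 1082, and with no filter they had 982 of 32523 and the Wnt genes 10 of 55. Leaving out 1 library gave 0 to 1219, 0 to 13, 0 to 21 and 0 to 8, with fewer samples in each fit. Calls higher among all tested genes numbered 8, and 0 at 0.05, 583 by adjusted p alone, 15 with DESeq2, 33 with no filter, 7792 under the embryonic scaling and 0 to 45 without a library. Under the embryonic scaling 5 Wnt genes, 30 other pathway genes and 5 targets were called higher, and by adjusted p alone 1 target, Cdkn1a, was. The medians of the Wnt genes, other pathway genes and targets under that scaling were 0.13, 0.50 and −0.041, and without a library −0.86 to −0.48, −0.46 to −0.21 and −1.05 to −0.62. With library totals the summed CPM of β-catenin and the Axins was 426 in the controls and 445 in the deficient libraries.

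The embryonic scaling, which moved the median of all tested genes to 0.80, also moved past 0 the log2 fold change of Smarcc1 (0.15), Smarcc2 (0.72), Lrp5 (0.27), Lrp6 (0.41), Tcf7l2 (0.35), Tcf7l1 (0.18) and Apc (0.062), all still below that median. Ctnnb1 turned to −0.0016 without control replicate 3 and to −0.011 without deficient replicate 3, with a highest value of 0.027 when another library was left out. The cause was not tested.

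The replicate numbers are those of the sample titles. The deviations of samples with the same number correlated at 0.0285, −0.034 and 0.295 for numbers 1 to 3. The last was the highest of all pairs, and control replicate 2 with deficient replicate 1 followed at 0.263. Control replicate 1 correlated at 0.0442 with deficient replicate 2. The deposited column names number the deficient libraries differently. They match control replicates 2 and 3 to deficient replicates 1 and 2 (0.263 and 0.000624). The sources used here do not tie either number to a litter, so neither was taken as a pairing. With the title number as a block the counts called lower were 1143, 13, 22, 7, and the count higher among all tested genes was 21.

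With 3 samples in each group, 23 of the 55 Wnt genes did not pass the filter and were not tested. All deficient libraries were deeper than the controls, so depth and group cannot be told apart. Of the 6 calls, none held without control replicate 1 or without deficient replicate 3, and 1 held without control replicate 2.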

Other observations

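Sfrp4, which did not pass the filter, had 9, 2 and 4 counts across control replicates 1 to 3, against 8, 11 and 28 counts in deficient replicates 1 to 3, the highest sum of the untested Wnt genes, with the highest count in deficient replicate 3, the deepest library. Wnt11 had 1, 10 and 10 counts across the controls, against 2, 6 and 10 in the deficient libraries, with replicate 1 of each group at the low end.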
